A study of Mus musculus with 6 samples.

Results

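In sorted long-term hematopoietic stem cells (LT-HSCs), 7 genes had some of the clearest lower signals in Lxn-/- pools and were on neither the B cell nor the plasma cell marker list used here: Lrmda, Gpr55, Gpr155, Krt222, St6gal1, Entpd4 and Ly6k. They were chosen by their values on these same 6 arrays. All lay among the 12 genes with a lower Lxn-/- signal, no overlap between genotypes and the lowest unadjusted p in limma. That ranking held 1062 genes. It left out probe sets with several symbols and symbols of predicted type, such as Gm and Rik names. The other 5 of the 12 (Mzb1, Pou2af1, Sdc1, Txndc5 and Derl3) were all on the plasma cell list. Each of the 7 was measured by exactly 1 of the 35557 probe sets on the array. No probe set with several gene symbols named any of them.

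The study measured gene expression on Affymetrix mouse Gene ST arrays in WT mice and in Lxn-/- mice, in which exons 2 to 4 of latexin (Lxn), a gene for an inhibitor of metallocarboxypeptidases, are deleted and the protein is lacking. All mice were female, of C57BL/6 background and 8 to 12 weeks old. Bone marrow cells were sorted as lineage-negative, Sca1+, c-Kit+, CD34- and negative for a marker spelled Flt2 in the design text. Each genotype had 3 pools of close to 100000 cells from 10 to 20 mice, so the spread given here is between pools and not between single animals. In such pools, fewer cells of a type and less RNA per cell cannot be told apart.

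The markers of the sort were read from the arrays in both genotypes. On the log2 scale, Kit, the receptor used in the sort, had a level of 12.85 ± 0.049 in WT pools and of 12.89 ± 0.075 in Lxn-/- pools (SD, n = 3 each). The stem cell transcription factor Mecom had levels of 10.61 ± 0.061 and 10.68 ± 0.16 (SD, n = 3 each) on its brighter probe set. Transcripts of markers that the gate excludes or may exclude were not low: Cd34 had levels of 13.12 ± 0.042 in WT and 13.18 ± 0.15 in Lxn-/- (SD, n = 3 each), and Flt3, which the labels do not name, 11.93 ± 0.14 and 11.99 ± 0.35 (SD, n = 3 each). Transcripts of lineage cells were also measured, with WT and Lxn-/- means of 13.49 and 13.46 for Mpo, of granulocyte precursors, and of 13.66 and 13.48 for Car1, of erythroid cells. The transcripts therefore do not show the CD34- state of the label, which was set by sorting. Of 20 stem cell markers measured, 16 were higher and 4 lower in Lxn-/-, with a median difference of 0.052 (-0.016 without Lxn-/- replicate 3). The probe set of Lxn itself read 8.99, 9.09 and 9.55 in WT and 8.66, 8.78 and 8.78 in Lxn-/- (adjusted p = 0.993 in limma). The positions of its probes were not used here, and probes outside the deleted exons check nothing. Array medians ran from 7.77 to 7.91, and WT replicate 3 stood at the end of the first principal component, with a score of 23.3 against -12.6 to 7.97 in the other pools.

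The 7 genes do not form a known pathway. Lrmda encodes a leucine-rich repeat protein required for normal pigment cell differentiation. Gpr55 encodes a G protein-coupled receptor for lysophosphatidylinositol, and Gpr155 a multi-span protein of the lysosomal membrane that senses cholesterol and signals to mTORC1. St6gal1 encodes the Golgi enzyme that caps N-glycans with sialic acid, which forms the ligand of the B cell lectin CD22. Entpd4 encodes a nucleotidase of the Golgi and lysosome, Krt222 a member of the type I keratin family and Ly6k a lipid-anchored surface protein of the Ly6 family known from sperm.

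The promoters of the members were set side by side because Lrmda leads the group and because Gpr55 and Gpr155 had nearly the same profile over the pools. RefSeq promoter entries (GRCm38.p6) existed in the table used here for 4 members, Lrmda, Gpr55, Gpr155 and St6gal1, with 6 start sites in all. The 250 bases before the start are printed on the gene's strand for 3 of them, and capitals mark a motif match. They lie at chr14:22019462-22019711 (plus strand) for Lrmda, chr1:85961056-85961305 (minus strand) for Gpr55 and chr2:73386481-73386730 (minus strand) for Gpr155.
Lrmda: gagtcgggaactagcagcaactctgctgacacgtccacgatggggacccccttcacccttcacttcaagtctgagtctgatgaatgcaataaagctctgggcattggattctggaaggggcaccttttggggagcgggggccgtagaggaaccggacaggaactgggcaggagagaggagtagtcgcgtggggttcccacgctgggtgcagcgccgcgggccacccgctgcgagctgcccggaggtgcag
Gpr55: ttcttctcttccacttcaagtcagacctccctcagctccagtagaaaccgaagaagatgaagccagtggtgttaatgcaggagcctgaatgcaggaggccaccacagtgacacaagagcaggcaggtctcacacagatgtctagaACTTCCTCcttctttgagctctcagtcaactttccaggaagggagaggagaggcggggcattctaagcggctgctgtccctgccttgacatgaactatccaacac
Gpr155: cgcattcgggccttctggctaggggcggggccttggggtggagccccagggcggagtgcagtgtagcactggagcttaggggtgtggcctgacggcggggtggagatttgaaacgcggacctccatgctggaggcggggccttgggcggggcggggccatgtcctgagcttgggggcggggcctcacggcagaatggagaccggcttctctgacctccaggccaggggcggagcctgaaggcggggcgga

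Motifs of 7 factors or factor groups were searched on both strands. They were ATGCAAAT (octamer, bound by POU2F proteins with the coactivator of Pou2af1), CAGGTG (E-box of TCF3 and TCF4), GAGGAAGT (SPI1 and other ETS factors), TGACGTGG (XBP1), TCACGTGA (MITF and TFE factors), and 1 motif each for EBF1 and PRDM1. The single match in the 6 member promoters was the ETS motif in Gpr55, read as ACTTCCTC on the gene's strand, 98 to 105 bases before the start. Over all 32851 promoters of the same length, that motif was present in 2.44%, the octamer in 1.6% and the E-box in 17.2%. The shares were 0.563% for XBP1, 0.785% for MITF and TFE, 0.779% for EBF1 and 0.207% for PRDM1. The promoters of Lrmda and Gpr155 were richer in G and C, at 62.4% and 70.4%, than that of Gpr55 at 52%, where the median over all promoters was 52.4%. These matches describe letters in a window and no binding was measured.

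No probe set, member or not, was called different between the genotypes. Of 23410 probe sets with a gene symbol, 0 had an adjusted p under 0.05 in limma (0%), 914 had an unadjusted p under 0.05 (3.9%; 2.43% lower and 1.47% higher in Lxn-/-), and the adjusted p of each of the 7 members was 0.993. All 7 members had no overlap between genotypes, a count that the choice of genes fixed, where 5.38% of all named probe sets had no overlap with lower values in Lxn-/-, 3.6% with higher values and 8.98% in either direction. Nothing is read from the members' count. The differences below are therefore descriptions of these 6 pools, on the log2 scale and as Lxn-/- minus WT, with no test of their own. An exact permutation test of 3 pools against 3 cannot give a two-sided p below 0.1.

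Lrmda had the largest lower difference of all 23410 probe sets. Given, as for all genes here, in the order of the replicate numbers, its WT pools had log2 values of 10.49, 10.17 and 10.02, while its Lxn-/- pools had 8.75, 8.17 and 9.36. All WT pools were high, and the Lxn-/- pools were spread over 1.19 log2 units, with replicate 2 lowest and replicate 3 nearest to WT. Means were 10.23 ± 0.24 (SD, n = 3) and 8.76 ± 0.60 (SD, n = 3), a difference of -1.47 (SE 0.27, 95% confidence interval -2.09 to -0.84), or 2.77-fold. Leaving out single pools moved it between -1.77 and -1.17.

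Of the receptors, Gpr55 read 8.00, 7.97 and 8.18 in WT and 7.38, 7.62 and 7.41 in Lxn-/-. The difference was -0.58 (SE 0.091, 95% confidence interval -0.79 to -0.37), with SDs of 0.11 and 0.13 (n = 3). Gpr155 read 9.76, 9.58 and 9.79 in WT and 8.96, 9.29 and 9.08 in Lxn-/-, a difference of -0.60 (SE 0.10, 95% confidence interval -0.83 to -0.37). In both genes WT replicate 2 was the lowest WT pool and Lxn-/- replicate 2 the highest Lxn-/- pool, and the order of all 6 pools was the same.

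Of the enzymes, St6gal1 read 9.48, 9.29 and 9.50 in WT and 8.99, 8.98 and 8.98 in Lxn-/-. Its WT pools had an SD of 0.12 and its Lxn-/- pools, nearly identical to each other, an SD of 0.0026 (n = 3). The difference was -0.44 (SE 0.075, 95% confidence interval -0.61 to -0.27). Entpd4 showed the opposite distribution of spread, with 11.86, 11.92 and 11.90 in WT and 11.33, 11.39 and 11.60 in Lxn-/-. It differed by -0.45 (SE 0.083, 95% confidence interval -0.65 to -0.26), and Lxn-/- replicate 3 lay nearest to WT, as for Lrmda. The RefSeq gene table lists a relative, Entpd4b, 4 protein-coding genes away on chromosome 14. It had no probe set of its own symbol here, so signal from that copy cannot be told apart from Entpd4.

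Krt222 read 8.06, 8.04 and 7.99 in WT and 7.68, 7.68 and 7.54 in Lxn-/-, and differed by -0.40 (SE 0.069, 95% confidence interval -0.56 to -0.24). Ly6k had the smallest difference of the 7, -0.36 (SE 0.068, 95% confidence interval -0.52 to -0.20), from 8.51, 8.52 and 8.51 in WT and 8.25, 8.13 and 8.08 in Lxn-/-. Its WT pools agreed to an SD of 0.0054 (n = 3). The other WT spreads of the 7 ran up to the 0.24 of Lrmda. Small spreads, here and in St6gal1, follow in part from the choice by lowest p. In the ranking, which left out predicted and several-symbol names, Ly6k and Derl3 lay just inside the limit of 12 genes. Their unadjusted p-values from limma's fit, not an exact test, were 0.000751 and 0.000773. Just outside lay Praf2 (-0.43, 0.00095) and Lrrn3 (-0.35, 0.00102).

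**Figure D1:**
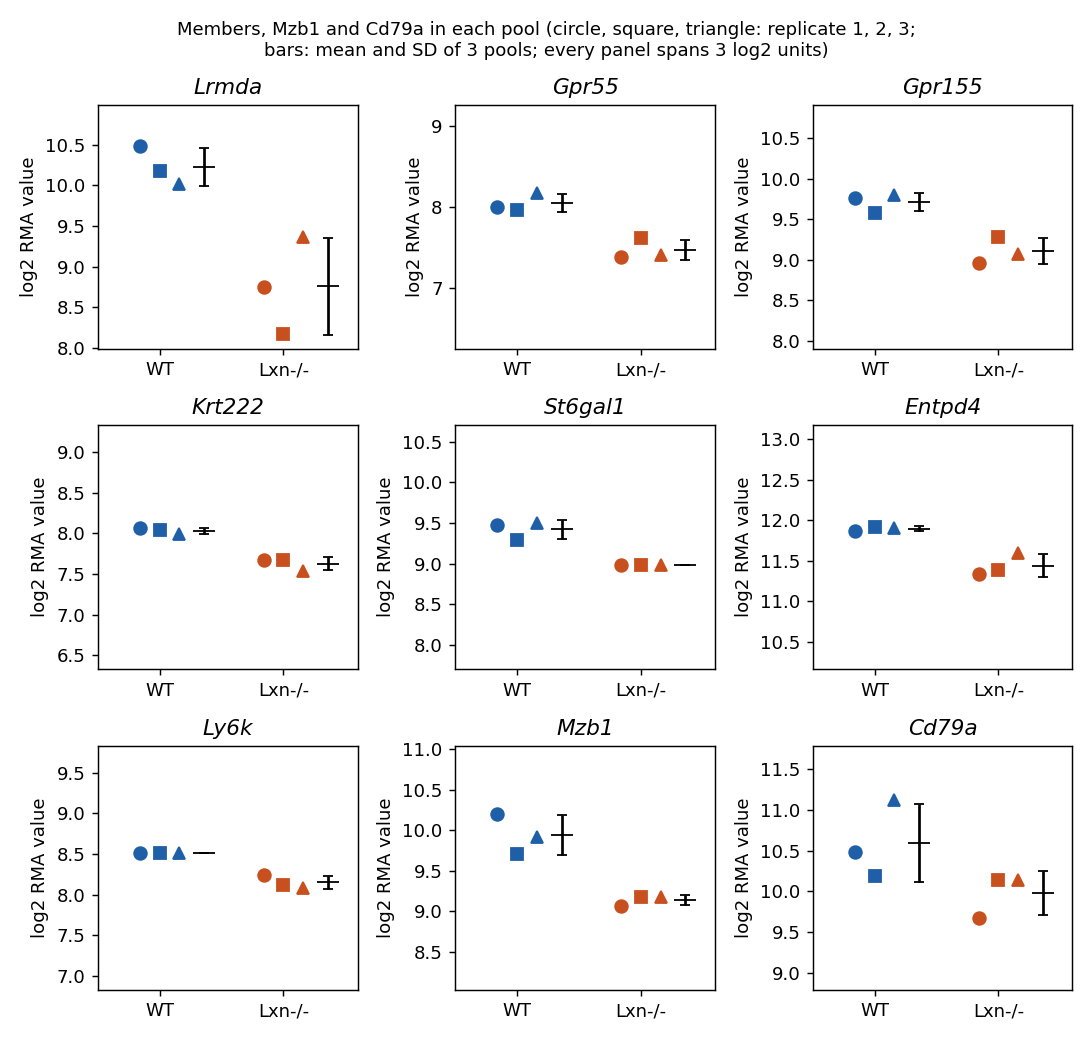
Log2 RMA values of the 7 members, Mzb1 and Cd79a in the 3 WT pools (blue) and the 3 Lxn-/- pools (orange), with symbols for the replicate number and black bars for the mean and SD. Every panel spans 3 log2 units, and Lrmda shows the widest gap, from 10.02 in the lowest WT pool to 9.36 in the highest Lxn-/- pool, and the widest spread in Lxn-/-.

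The members were set against Mzb1, an endoplasmic reticulum protein of antibody-secreting cells, and Cd79a, a signalling subunit of the B cell receptor. Mzb1 read 10.19, 9.71 and 9.91 in WT and 9.06, 9.17 and 9.18 in Lxn-/-. Cd79a read 10.48, 10.18 and 11.12 in WT and 9.67, 10.14 and 10.14 in Lxn-/-, so that its genotypes came within 0.04 of each other. For both genes WT replicate 2 was the lowest WT pool and Lxn-/- replicate 1 the lowest of all.

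Over the 6 pools every member had a high Pearson's r with Mzb1, from 0.88 (Lrmda, Entpd4 and Ly6k) to 0.97 (St6gal1). Spearman's rho ran from 0.543 for Ly6k to 0.886 for Lrmda, Gpr55 and Gpr155. Since Mzb1 and the members were picked for the same separation of genotypes, these values are descriptions and carry no p. With Cd79a the members were spread more widely. Pearson's r was 0.841 for Gpr55, 0.837 for Gpr155 and 0.812 for St6gal1, with rho of 1 for both receptors and 0.829 for St6gal1. It was 0.723 for Entpd4, 0.586 for Krt222, 0.573 for Ly6k and 0.566 for Lrmda. Without the 2 pools farthest from the median of Cd79a, WT replicate 3 and Lxn-/- replicate 1, r was 0.87 for St6gal1 and 0.809 for Gpr155, between 0.662 and 0.69 for Gpr55, Krt222, Lrmda and Ly6k, and 0.555 for Entpd4. Without the 2 farthest for Mzb1, WT replicates 1 and 3, it ran from 0.816 (Lrmda) to 0.982 (St6gal1).

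The size of the pools' deviations from their genotype's mean entered the choice of genes, through the lack of overlap and limma's p. Correlations of these deviations are therefore not independent of that choice. The 14 relations were tested with an exact two-sided permutation within genotypes of 36 arrangements. None passed, and the lowest adjusted p was 0.389. With 14 relations, 1 alone could not pass, since the smallest possible p of 0.0278 then gives an adjusted p of 0.389. The lack of a pass therefore decides nothing. With Cd79a, r of these deviations was 0.792 for Gpr55 (exact p = 0.0833, adjusted p = 0.487), 0.732 for Gpr155 (exact p = 0.139, adjusted p = 0.487) and 0.706 for St6gal1 (exact p = 0.472, adjusted p = 0.826). It was 0.287 for Entpd4, -0.164 for Lrmda, -0.498 for Krt222 and -0.514 for Ly6k, and with quantile normalization -0.0033 for Krt222 and -0.0232 for Ly6k. With Mzb1 it was 0.712 for St6gal1 (exact p = 0.667, adjusted p = 0.883), which became -0.956 without WT replicate 2. It was 0.552 for Gpr155 (0.207 without WT replicate 2) and between -0.0162 and 0.273 for Lrmda, Gpr55, Krt222 and Entpd4. For Ly6k it was -0.295 (exact p = 0.0278, adjusted p = 0.389), where 0.0278 is the smallest p these arrangements can give. The value of St6gal1 rests on the WT pools, since its Lxn-/- pools hardly varied, and that of Ly6k on the Lxn-/- pools. Differences between the members in these correlations were not tested.

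**Figure D2:**
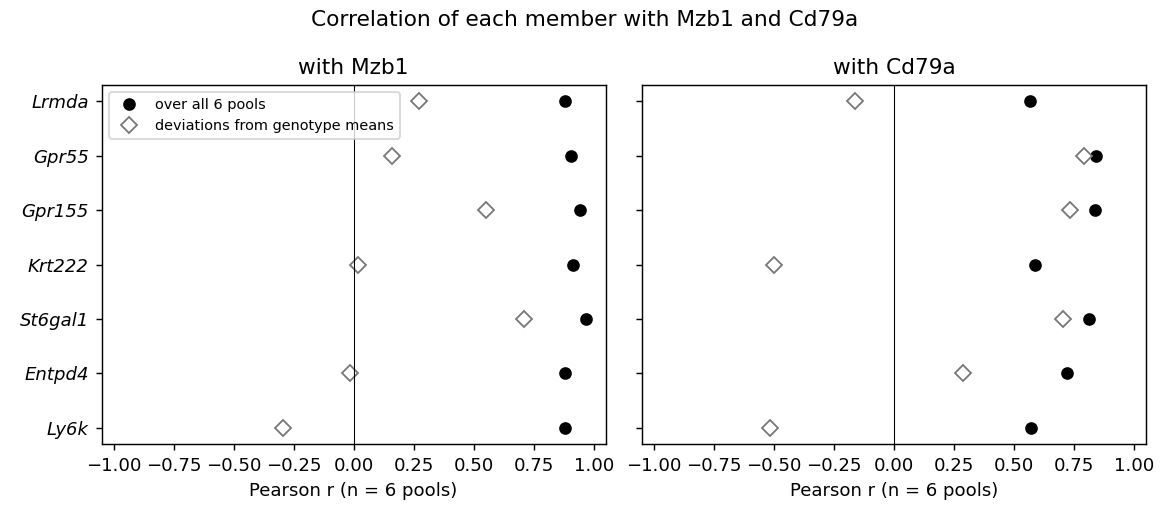
Pearson's r of each member with Mzb1 (left) and with Cd79a (right), over all 6 pools (filled circles) and for deviations from the genotype means (open diamonds). The circles lie between 0.566 and 0.97, while the diamonds spread from -0.514 to 0.792, with Gpr55, Gpr155 and St6gal1 above 0.7 for Cd79a.

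With Cd79a as a covariate in limma, the differences of Lrmda, Krt222 and Ly6k were -1.59 (SE 0.39), -0.45 (SE 0.098) and -0.41 (SE 0.097), or 108%, 112% and 114% of the values without it. Those of Gpr155, Gpr55 and St6gal1 were -0.44 (SE 0.12), -0.43 (SE 0.11) and -0.35 (SE 0.10), or 73.1%, 74% and 79.5%, and that of Entpd4 was -0.41 (SE 0.12), or 89.9%. With Mzb1 as a covariate the differences were -0.92 (SE 0.82) for Lrmda, -0.26 (SE 0.29) for Gpr155 and -0.18 (SE 0.21) for St6gal1, and between -0.49 and -0.40 for the other four members, with SEs of 0.21 to 0.29. Mzb1 itself did not overlap between the genotypes, so in that fit its effect and that of genotype can hardly be told apart. Cd79a did not overlap either, by a gap of 0.04 against 0.53 for Mzb1. In its fit, too, the 2 effects can be told apart only in part. Differences between the members in these percentages were not tested.

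Among themselves the members agreed closely over the 6 pools, with Pearson's r from 0.741 to 0.986 in 21 pairs, as their choice fixed. In the deviations from genotype means only 8 of the 21 pairs had an r above 0, and the range was -0.917 to 0.883. Gpr55 and Gpr155 were the pair most alike (0.883), followed by Lrmda with Entpd4 and Krt222 with Ly6k (0.645 each). Krt222 and Entpd4 (-0.917), Entpd4 and Ly6k (-0.8) and Lrmda and Gpr55 (-0.709) ran against each other, with Lxn-/- replicates 2 and 3 in the opposite order.

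B cell and plasma cell markers were lower in Lxn-/- beside the members. Of 21 measured B cell markers 19 were lower in Lxn-/- and 2 higher, with a median of -0.24, where the median over all 19938 genes was -0.013 and 56% were lower. The mean over the list was 9.66, 9.41 and 9.64 in WT and 9.29, 9.30 and 9.32 in Lxn-/-. Of 25 plasma cell markers 23 were lower, with a median of -0.33, and the list mean was 10.89, 10.58 and 10.67 in WT and 10.35, 10.37 and 10.31 in Lxn-/-. No overlap with lower values was seen in 6 B cell and 18 plasma cell markers, against 5.38% of all probe sets, and 0 members of either list passed the adjusted test in limma, with 8 and 18 at an unadjusted p under 0.05. The lists were chosen with earlier results of these data known, and Pou2af1 is on both, so nothing is read from these counts. RMA values have no zero, so the absence of a transcript cannot be read from them.

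The lower B lineage genes of lowest p were Pou2af1, the octamer coactivator, at -0.74 (SE 0.12), Fcrla, an intracellular Fc receptor-like protein, at -0.60 (SE 0.14), Fcmr, the receptor for IgM, at -0.49 (SE 0.12) and Ighm, the IgM heavy chain, at -0.38 (SE 0.11). Pax5, the factor of B cell commitment, was also lower, by -0.13 (SE 0.17), and Ebf1 by -0.39 (SE 0.24), both with overlapping pools. St6gal1 was closest to the B cell list mean, with r of 0.967 over the 6 pools and 0.969 in deviations from genotype means, and the latter again rests on the WT pools. Over 6 pools the correlation of the 7 members with the B cell and plasma cell means ran from 0.781 to 0.967, and with the means of 8 other lists from -0.486 to 0.737. Here too the separation of genotypes is shared, and the part of these cells in the members' values was not tested.

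Markers of other cells were lower too. All 12 measured erythroid markers were lower in Lxn-/-, with a median of -0.25 that was -0.11 without WT replicate 3 or without Lxn-/- replicate 3 and -0.37 without Lxn-/- replicate 2. Of 16 basophil, mast cell and eosinophil markers 14 were lower, with a median of -0.24 that was -0.074 without Lxn-/- replicate 3, -0.38 without Lxn-/- replicate 2 and -0.11 with array weights. The B cell median stayed between -0.31 and -0.19 when single pools were left out. It was -0.18 with array weights and -0.35 without dim probe sets. Il5ra, the interleukin 5 receptor of eosinophils and some B cells, differed by -0.78 (SE 0.15) without overlap. Their part in the members' values was not tested.

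The remaining marker lists had medians above 0 that depended on single pools or on the scaling. Plasmacytoid dendritic cell markers had a median of 0.037 over 28 genes (-0.0081 with a common array median, -0.0009 with quantile normalization, -0.024 without dim probe sets, -0.0073 without Lxn-/- replicate 1), although Ly6d, also a mark of lymphoid progenitors, differed by -0.91 (SE 0.22). The median was 0.11 over 18 monocyte and macrophage markers (0.0065 without WT replicate 3), 0.023 over 15 conventional dendritic cell markers (-0.022 with a common array median, -0.025 with quantile normalization, -0.065 without dim probe sets, -0.03 without WT replicate 2, -0.00083 without WT replicate 3, -0.11 without Lxn-/- replicate 1, -0.027 without Lxn-/- replicate 3) and 0.05 over 18 T and NK cell markers (-0.017 without WT replicate 2, -0.10 without Lxn-/- replicate 2). It was 0.46 over 19 neutrophil markers and -0.17 without WT replicate 3. The mean of the neutrophil markers was 10.70, 10.19 and 8.94 in WT and 10.33, 9.40 and 11.04 in Lxn-/-, and that of the erythroid markers 9.60, 9.74 and 10.09 against 9.50, 9.84 and 9.35. Both thus varied more between pools of a genotype than between genotypes.

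In deviations from genotype means Lrmda ran with the neutrophil mean (r = 0.871) and against the erythroid mean (r = -0.873). It also ran against the T and NK cell mean (-0.87) and the basophil, mast cell and eosinophil mean (-0.854). Gpr55 ran against the neutrophil mean (-0.866) and with the erythroid (0.905) and T and NK cell means (0.885). The largest in size were St6gal1 with the B cell mean (0.969) and Krt222 with the stem cell mean (-0.966). Of the 70 such values of 7 members with 10 lists, 15 were 0.8 or more in size, each over 6 pools that share the same libraries. How many would reach that size without any relation was not tested.

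The genes most like Lrmda over the 6 pools, among single-symbol genes at or above the median level, were Igkv4-55 (r = 0.992), Fcmr (0.984), Vmac (0.977), Slc3a2 (0.975), Tnfrsf13b (0.972) and Rab5b (0.969). These are the highest of 9893 values, and all share the separation of genotypes for which Lrmda was picked. Their high r follows in part from that search, and a shared origin was not tested. Igkv4-55, a variable segment of the immunoglobulin kappa chain, read 12.89, 12.58 and 12.51 in WT and 11.47, 11.01 and 12.18 in Lxn-/-. Its pools stood in the same order as those of Lrmda, with Lxn-/- replicate 3 the highest and replicate 2 the lowest of the genotype, and it differed by -1.11 (SE 0.26). Fcmr read 9.49, 9.52 and 9.32 in WT and 8.94, 8.72 and 9.19 in Lxn-/-. Tnfrsf13b, a receptor for the B cell survival factors BAFF and APRIL, read 10.60, 10.48 and 10.43 against 10.13, 10.09 and 10.23.

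In deviations from genotype means, the 6 genes most like Lrmda were Plpbp (r = 0.998), Fbxo4 (0.995), Igkv4-55 (0.992), Acad8 (0.992), Mir345 (0.991) and Ly6a2 (0.991). These too are the highest of 9893 values over 6 pools. Igkv4-55 was the gene on both lists. Plpbp, which encodes a pyridoxal phosphate binding protein, differed by 0.19 (SE 0.08) in the direction opposite to Lrmda.

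The other members had different company. The genes most like St6gal1 were Pou2af1 (r = 0.991), Pdia4 (0.981), a disulfide isomerase of the endoplasmic reticulum, and Tmem163 (0.979). Those of Gpr155 were Ube2j1 (0.998), a ubiquitin-conjugating enzyme of endoplasmic reticulum associated degradation, Zhx2 (0.983) and Tmem163 (0.982), and those of Gpr55 were Praf2 (0.988), Gpr155 (0.986) and Ube2j1 (0.975). Krt222 was closest to E2f6 (0.992), Ccdc124 (0.987) and Ly6k (0.977), and Ly6k to Cand1 (0.991), Gmppa (0.978) and Ipo4 (0.972), a set with differences from -0.40 to -0.042. The genes most like Entpd4 were Slc3a2 (0.957), Evi5 (0.955) and Chtf8 (0.950), the lowest values of the 7 members. For each member 9893 or 9894 genes were candidates, so these high values follow in part from the search and from the shared separation of genotypes.

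**Figure D3:**
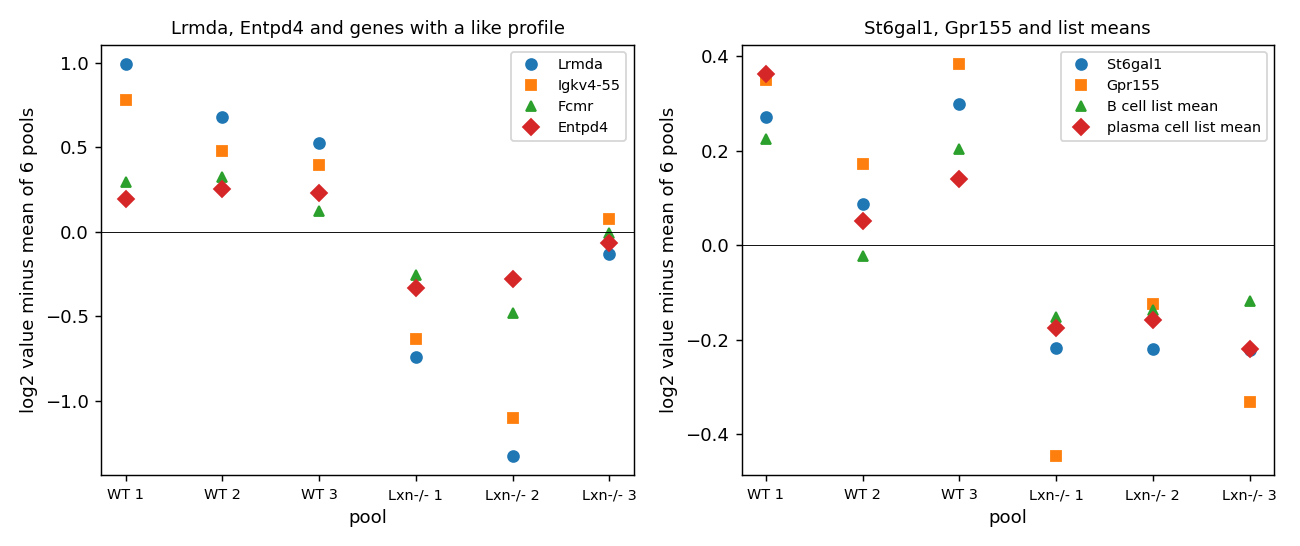
Log2 values minus the mean of the 6 pools, for Lrmda, Igkv4-55, Fcmr and Entpd4 (left) and for St6gal1, Gpr155 and the means of the B cell and plasma cell marker lists (right). On the left Lxn-/- replicate 3 lies nearest to WT in all 4 profiles, and on the right WT replicate 2 is the lowest WT pool in all 4. Igkv4-55 and Fcmr were picked for their likeness to Lrmda over these same pools.

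The genes beside the members along the chromosomes were also read. Since the members were chosen for their lower values, smaller differences beside them largely follow from that choice. The members lie on chromosomes 14 (Lrmda and Entpd4), 1, 2, 11, 16 and 15, while Lxn is on chromosome 3. Of the 70 protein-coding genes that flank the members, 5 on each side, 62 were measured, with a median of -0.016. Of these, 40 were lower in Lxn-/-, where 56% of all genes were lower. Lower values without overlap were seen in 2 of the 62, Synb beside Entpd4 and Ly6d near Ly6k, against 5.38% of all named probe sets. Higher values without overlap were seen in 2, Krt24 and Krt27 beside Krt222, against 3.6%. Nothing is read from these counts. The 9 measured neighbours of Lrmda lay between -0.13 and 0.18 and all overlapped. The next gene, Kcnma1, a potassium channel, differed by 0.18 on its brighter probe set and by -0.11 on the other.

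Synb, which encodes the retroviral envelope-derived protein syncytin b, is the gene next to Entpd4. It read 7.76, 7.73 and 7.68 in WT and 7.22, 6.96 and 7.40 in Lxn-/-, a difference of -0.53 (SE 0.11). Its pools stood in the same order as those of Lrmda, and Lxn-/- replicate 3 was nearest to WT as in Entpd4. On the other side of Synb, Slc25a37, a mitochondrial iron importer of red cell precursors, differed by 0.22 (SE 0.13), and only 4 of the 10 neighbours of Entpd4 were measured. Ly6d read 10.43, 9.63 and 10.60 in WT and 9.22, 9.32 and 9.40 in Lxn-/-. WT replicate 2 was low for Ly6d, as it was for Cd79a and Mzb1, whereas Ly6k itself did not vary among the WT pools.

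**Figure D4:**
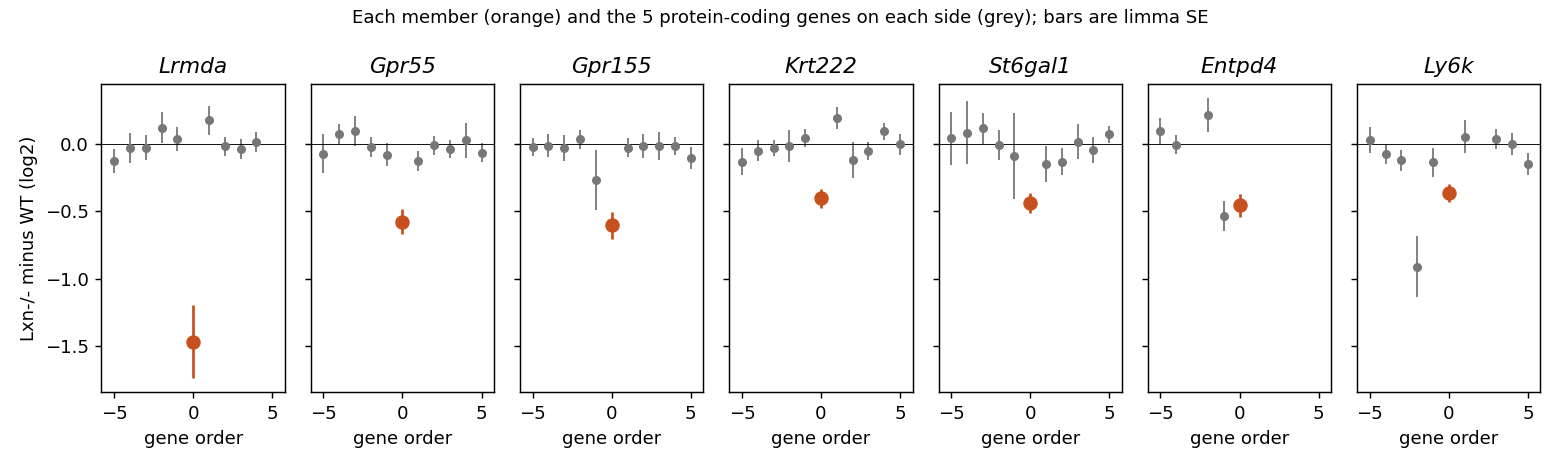
Difference between Lxn-/- and WT (log2, with limma's SE) for each member (orange, at 0) and for the measured protein-coding genes up to 5 places away on each side (grey), in order along the chromosome. Synb beside Entpd4, at -0.53, and Ly6d, at -0.91 and 2 places from Ly6k, are the neighbours that lie as low as a member.

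The families and pathways of the members had median differences between -0.061 and 0.018, members left out, and 0 of their measured genes passed the adjusted test in limma. Beside St6gal1, 32 genes of sialic acid synthesis, transfer and removal had a median of -0.018 (-0.063 with a common array median, -0.041 with quantile normalization, -0.00096 without dim probe sets, and -0.045, -0.036, -0.03 and -0.062 without WT replicate 1, WT replicate 3, Lxn-/- replicate 1 and Lxn-/- replicate 3) with 17 lower, and 3 had an unadjusted p under 0.05 with lower values, where the share over all probe sets was 2.43%. These were Cmah, which hydroxylates CMP-sialic acid, with 10.39, 10.21 and 10.28 in WT and 9.82, 9.99 and 9.91 in Lxn-/- (-0.38, SE 0.077), the sialyltransferase gene St8sia6 (-0.70, SE 0.16) and the phosphatase gene Nanp (-0.16, SE 0.066). Beside Gpr55, 29 genes of lysophospholipid and cannabinoid signalling had a median of 0.0016, which became -0.044 with a common array median, -0.016 with quantile normalization and -0.0099 without WT replicate 1, with 15 higher and 14 lower. Gpr18, an orphan receptor related to Gpr55, differed by -0.35 (SE 0.078) without overlap, and Mgll, the lipase that degrades the endocannabinoid arachidonoylglycerol, by -0.33 (SE 0.11).

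Around the surface protein Ly6k, 28 genes of the Ly6 and uPAR family had a median of -0.052 with 17 lower. The median ran from -0.079 to -0.0071 when single pools were left out (-0.0071 without Lxn-/- replicate 2, -0.022 without WT replicate 3, -0.031 without WT replicate 1, -0.027 without Lxn-/- replicate 1, -0.079 without Lxn-/- replicate 3), and was -0.12 without dim probe sets and -0.097 with a common array median. Next to Ly6d, Ly6i differed by -0.43 (SE 0.13) and Ly6f by -0.35 (SE 0.11), and since Ly6 genes have close paralogs, probes may share signal between them. Nucleotide hydrolysis genes beside Entpd4 had a median of -0.061 (-0.11 with a common array median, -0.037 without Lxn-/- replicate 3, -0.04 without WT replicate 2) with 12 of 17 lower, among them Entpd1, the surface ectonucleotidase CD39, at -0.27 (SE 0.095). Type I keratins beside Krt222 had a median of -0.013 (-0.058 with a common array median, 0.021 without dim probe sets, 0.0045 without WT replicate 3, 0.02 without Lxn-/- replicate 2 and near 0 without Lxn-/- replicate 1) with 17 of 27 lower, with Krt31 at -0.27 (SE 0.088) and Krt24 at 0.19 (SE 0.08).

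The pathways of Gpr155 and Lrmda held no gene past an unadjusted p of 0.05. The 36 genes of lysosomal cholesterol and nutrient sensing beside Gpr155 had a median of 0.013 (-0.032 with a common array median, -0.0080 with array weights) and lay between -0.14 and 0.14, with 0 at an unadjusted p under 0.05 in limma. Npc1, the lysosomal cholesterol exporter, differed by 0.12 (SE 0.072) and Slc38a9, the lysosomal arginine sensor, by 0.14 (SE 0.08). The 35 pigment cell and melanosome genes beside Lrmda had a median of 0.018 (-0.027 with a common array median, -0.0054 without WT replicate 3) and lay between -0.16 and 0.12, also with 0 at an unadjusted p under 0.05. Bloc1s1 and Bloc1s6, subunits of a complex that builds lysosome-related organelles, both differed by -0.16 (SE 0.07 and 0.078).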

How the data were processed

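The deposited table holds log2 values. The authors normalized them by RMA, per the labels' design text; RMA and Partek 6.0 are the tools listed per the submitters' processing notes. No source used here gives the background step or the summary level. Of 35557 probe sets, 21789 had 1 symbol in GEO's platform annotation, 1621 several and 12147 none here. The 23410 named probe sets were fitted with lmFit and eBayes (limma 3.58.1, R 4.3.3; two-sided, no covariates), p-values were adjusted by Benjamini-Hochberg over all of them, and the threshold was 0.05. The fit was checked on simulated data. Lists used the probe set of highest mean for each of 19938 genes. The members, Mzb1 and Cd79a, the lists and the motifs were chosen with earlier results of these data known. Genes named beside the members were up to 4 of lowest p per list, the most correlated genes (6 for Lrmda, 3 for others) and the 5 flanking genes on each side. Kit, Mecom, Cd34, Flt3, Mpo, Car1, Pax5, Ebf1, Derl3 and Lrrn3 were named outside that rule, after their values were seen. Flanking genes and chromosomes came from a RefSeq table (GRCm38.p6). The number of arrays limits the precision.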

Additional observations from a re-analysis of the deposited data

How the results depend on the processing

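The differences of all 7 members kept their sign, and none passed an adjusted p of 0.05 in limma, in 96 alternative values, which covered quantile normalization, a common array median, array weights, a filter on dim probe sets (which removed Gpr55 and Krt222), all deposited probe sets, a replicate block, Mzb1 or Cd79a as a covariate and the removal of each pool. The count of called probe sets was 0 under each of the 12 alternatives run on it. The median difference of the members was -0.455 and ran from -0.535 to -0.44 when single pools were left out, with the lowest value without Lxn-/- replicate 3. Replicate numbers were shared between genotypes, but same-numbered pools deviated together only for number 1 (correlations over probe sets of 0.372, -0.0719 and -0.0807). Whether the numbers pair the pools was not tested. With the replicate block the count called was 0 and Lrmda differed by -1.47 (SE 0.25).

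Correlations of deviations from genotype means varied with the pools and the scaling. With quantile normalization r with Mzb1 changed sign for Gpr55 (-0.019), Krt222 (-0.408) and Entpd4 (0.139), moved from -0.295 to -0.685 for Ly6k, and r with Cd79a came close to 0 for Krt222 (-0.0033) and Ly6k (-0.0232). When single pools were left out, r with Mzb1 ran from -0.0776 to 0.611 for Lrmda, -0.315 to 0.766 for Gpr55, -0.507 to 0.368 for Krt222, -0.956 to 0.962 for St6gal1 and -0.568 to 0.303 for Entpd4, and r with Cd79a from -0.631 to 0.12 for Lrmda and -0.0412 to 0.507 for Entpd4. Without changing sign, r with Mzb1 ran from 0.207 to 0.789 for Gpr155 and r with Cd79a from -0.867 to -0.162 for Ly6k. With Cd79a it stayed between 0.464 and 0.94 for Gpr55, Gpr155 and St6gal1. The cause was not tested.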
